A study of Mus musculus with 36 samples.

Results

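Ccnd1, Ccnd2, Cdkn1a and Cdc45 are 4 cell-cycle genes. All but Cdkn1a are followed here, each through 1 transcript, across 9 conditions of hyperosmotic stress and recovery in mouse embryonic fibroblasts. The members were named by transcript identifier: ENSMUST00000093962 for Ccnd1, ENSMUST00000000188 for Ccnd2, ENSMUST00000023829 for Cdkn1a and ENSMUST00000000028 for Cdc45. Of 17478 transcripts listed in at least 1 library, 3 were members, namely those of Ccnd1, Ccnd2 and Cdc45, and each of these was listed in all 18 footprint and all 18 RNA libraries. The identifier of Cdkn1a was listed in 0 of the 36 libraries, so this gene was not analysed here. The members were chosen by measured values of these same libraries, and which comparison led to the choice is not recorded. All their values are therefore given as a description, without p-values.

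Progression of a cell from G1 into DNA synthesis is driven by D-type cyclins, which bind and activate the kinases Cdk4 and Cdk6 so that these phosphorylate the retinoblastoma protein. Ccnd1 and Ccnd2 encode cyclin D1 and cyclin D2, short-lived proteins whose amount follows growth factor signals in fibroblasts. Cdkn1a encodes p21, an inhibitor of cyclin-dependent kinases that is induced by p53. Cdc45 encodes a subunit of the replicative helicase, the complex of Cdc45, the Mcm proteins and the GINS complex that unwinds DNA at replication forks.

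The cells were C57BL/6J fibroblasts grown in high-glucose medium with serum and stressed with sorbitol, which makes the medium hyperosmotic. Beside unstressed cells there were 2 h exposures to 500, 600 and 700 mOsm and a 15 min exposure to 700 mOsm. The 700 mOsm exposures, called brief (15 min) and prolonged (2 h), were each also followed by recovery for 15 min or for 2 h. Each condition had 2 libraries of ribosome footprints, which are the mRNA fragments that ribosomes protect, and 2 libraries of cytoplasmic RNA. All lysates held cycloheximide, which arrests ribosomes on the mRNA, and per the labels' protocols 3 plates of cells were used, without word on whether libraries of a condition came from separate cultures.

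Footprint libraries held 734083 to 9124787 reads on 6193 to 10513 listed transcripts, the shallowest being those at 700 mOsm, and RNA libraries 6851959 to 55262418 reads on 12370 to 15948. Footprint libraries of the same condition differed hardly more than sampling noise would make them (mean chi-square per degree of freedom 1.01 to 1.09, where noise alone gives 1) and were counted as 1 sample, so footprint levels have counting intervals only, which cover counting error and nothing else. The RNA pairs differed more (3.44 to 47.1) and were kept as n = 2. The deposited file names of 2 RNA groups contradict their labels, each naming the other's times. These groups are called here the libraries labelled 700 mOsm 15 min, recovery 2 h, and the libraries labelled 700 mOsm 2 h, recovery 15 min. Levels are the deposited RPKM (footprints, per coding length) or FPKM (RNA, per transcript length), each divided by a library factor that sets the typical abundant transcript level across libraries. A footprint difference is thus relative to 4619 transcripts, those listed in all 18 footprint libraries with a mean level of at least 10. Over the 8849 transcripts past a filter on low values, footprint differences from unstressed cells at 700 mOsm were not centred on no difference. Their median on the log2 scale was -0.92 after 15 min and -0.91 after 2 h. The factor moved the footprint libraries at 700 mOsm by 0.56 (15 min) and 0.47 (2 h) on the log2 scale relative to unstressed cells, and those at 500 and 600 mOsm by -0.08 and -0.12. In extracts of many cells, fewer cells with a transcript and less of it in each cell cannot be told apart.

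By RefSeq (GRCm38.p6), Ccnd1 lies on chromosome 7 at 144929931 to 144939831, Ccnd2 on chromosome 6 at 127125162 to 127152188 and Cdc45 on chromosome 16 at 18780447 to 18811972. The lengths behind the deposited values give the 3 transcripts different shapes. The Ccnd1 transcript has 296 codons including the stop and 2852 nt of non-coding sequence, more than 84.6% of the 11028 transcripts listed in both assays. The Ccnd2 transcript has 290 codons and 5460 nt of non-coding sequence, more than 97.6%. The Cdc45 transcript is the reverse, with 567 codons and 442 nt of non-coding sequence, which is more than in only 18.6%. Over these 11028 transcripts the medians were 466 codons and 1154 nt of non-coding sequence.

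Ribosome footprints on both D-type cyclins were lower under stress, and those on Cdc45 were higher, in each of the 4 stress conditions. The separation grew with osmolarity at 2 h and was already present after 15 min at 700 mOsm. Cytoplasmic RNA of the same transcripts moved in the same directions at 700 mOsm by smaller factors. During recovery the footprints of all 3 lay within 2-fold of those in unstressed cells.

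**Figure D1:**
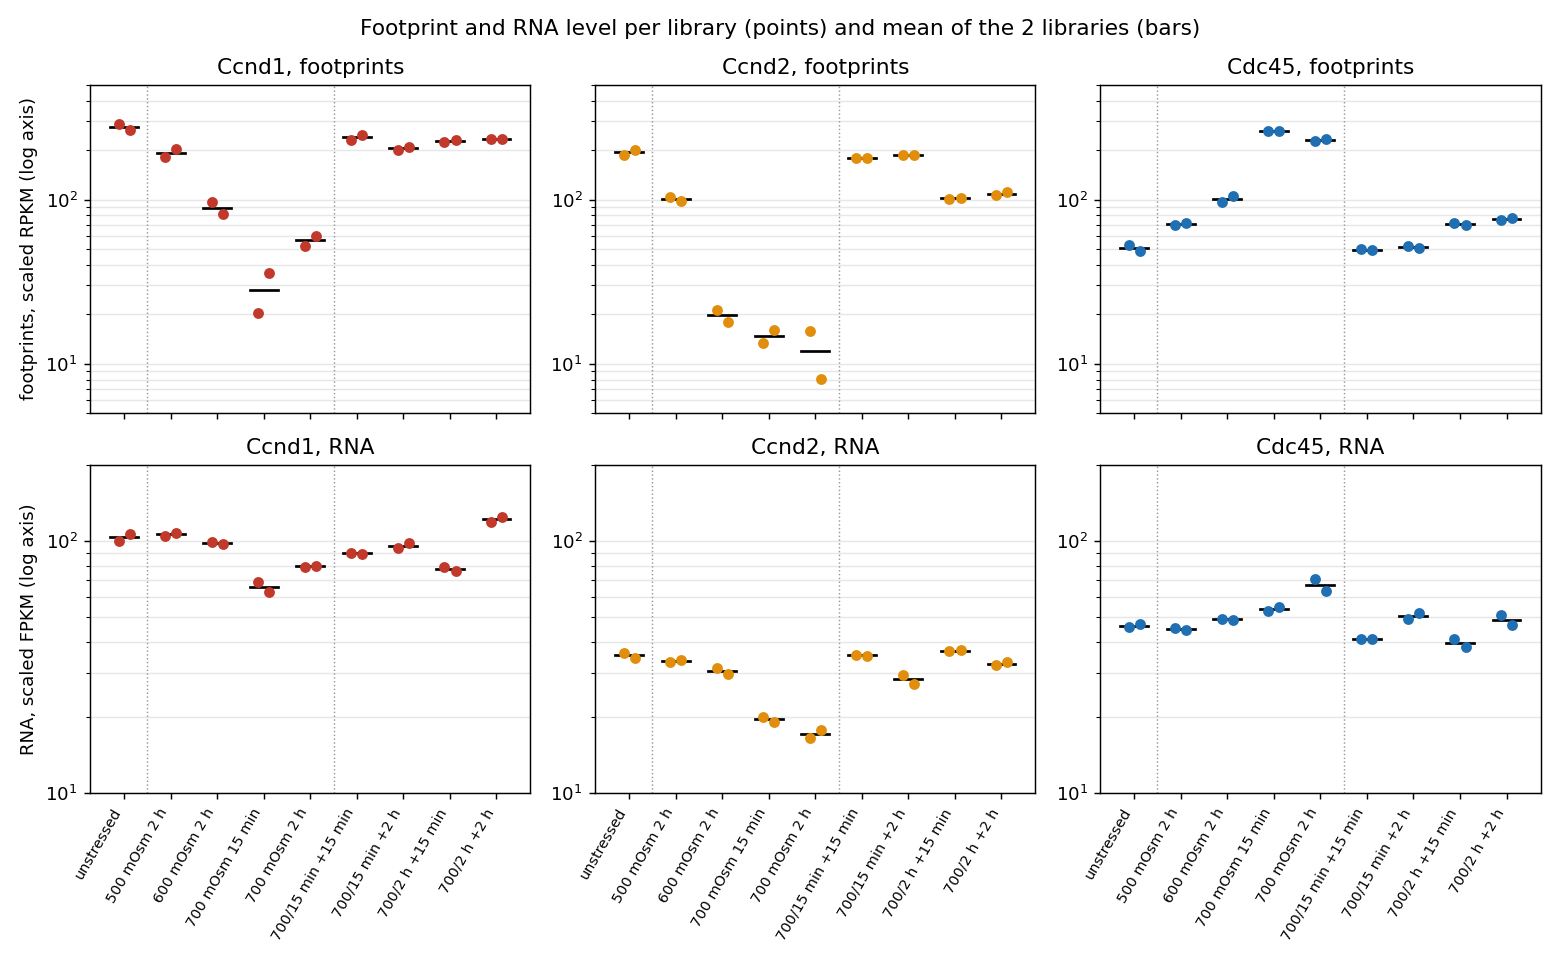
Scaled footprint level (RPKM, upper row) and RNA level (FPKM, lower row) of Ccnd1, Ccnd2 and Cdc45 on log axes, in 9 conditions; points are the 2 libraries of a condition and bars their mean, and an axis label such as 700/15 min +2 h means 2 h of recovery after 15 min at 700 mOsm. Ccnd1 and Ccnd2 footprints dip at 600 and 700 mOsm, where Cdc45 footprints reach 101 to 262; in recovery from the 2 h stress Ccnd2 stays lower (102 and 109) and Cdc45 higher (71.1 and 76.3) than in unstressed cells (194 and 50.8).

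Ccnd1, cyclin D1, had the highest footprint level of the 3 in unstressed cells. The libraries of unstressed cells stood at 288 and 267 scaled RPKM (2000 and 1932 reads), those at 500 mOsm at 181 and 205 (791 and 896 reads) and those at 600 mOsm at 96.8 and 81.7 (274 and 194 reads). At 700 mOsm they stood at 20.5 and 35.6 after 15 min (11 and 25 reads) and at 52.2 and 60.4 after 2 h (27 and 38 reads). The libraries of each of these 5 conditions lay apart from those of every other, with the lowest level at 700 mOsm after 15 min and not at 2 h. From the summed reads, Ccnd1 footprints were 1.44 times lower at 500 mOsm than in unstressed cells (95% counting interval 1.36 to 1.52), 3.08 times lower at 600 mOsm (2.80 to 3.40), 9.54 times lower at 700 mOsm after 15 min (6.88 to 13.6) and 4.89 times lower at 700 mOsm after 2 h (3.82 to 6.34). The difference between 2 h and 15 min at 700 mOsm was 1.95-fold (1.28 to 3.02), and it rests on 65 and 36 reads.

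Ccnd2, cyclin D2, had a lower footprint level than Ccnd1 in all 9 conditions. Its levels were 187 and 202 scaled RPKM in unstressed cells (1276 and 1430 reads), 104 and 97.7 at 500 mOsm (444 and 419 reads) and 21.3 and 18 at 600 mOsm (59 and 42 reads). At 700 mOsm only 7 and 11 reads were left after 15 min, for levels of 13.3 and 16.0, and 8 and 5 reads after 2 h, for 15.8 and 8.11. These lie at or close to 5 reads, the fewest that any transcript had in the lists of these libraries. The libraries of unstressed cells, 500 mOsm and 600 mOsm lay apart, while those of the 700 mOsm times overlapped. Ccnd2 footprints were 1.93 times lower at 500 mOsm than in unstressed cells (95% counting interval 1.79 to 2.09), 9.83 times lower at 600 mOsm (8.06 to 12.1), 13.1 times lower at 700 mOsm after 15 min (8.29 to 22.2) and 16.8 times lower after 2 h (9.82 to 31.6). The step between 600 and 700 mOsm at 2 h was 1.71 times lower, with an interval of 0.957 to 3.32 that includes no difference at this depth. The interval for 2 h against 15 min at 700 mOsm likewise included no difference (0.593 to 2.84 times lower).

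Cdc45, the helicase subunit, went the other way. Footprint levels were 53.1 and 48.6 scaled RPKM in unstressed cells (707 and 674 reads), 69.7 and 72.1 at 500 mOsm (582 and 605 reads) and 96.1 and 105 at 600 mOsm (521 and 479 reads). They were 261 and 263 at 700 mOsm after 15 min (269 and 354 reads) and 226 and 236 after 2 h (224 and 284 reads). No 2 of these 5 conditions overlapped. Relative to unstressed cells Cdc45 footprints were 1.40-fold at 500 mOsm (95% counting interval 1.29 to 1.51), 1.97-fold at 600 mOsm (1.82 to 2.14), 5.17-fold at 700 mOsm after 15 min (4.69 to 5.68) and 4.55-fold after 2 h (4.11 to 5.05). The size depended on the scaling: on the RPKM values as deposited the log2 difference after 15 min was 1.79 rather than 2.35, and after 2 h 1.69 rather than 2.16. The same change of scaling took Ccnd1 to -3.85 rather than -3.31 after 15 min and to -2.75 rather than -2.28 after 2 h. The directions were thus kept on both scales. Both scales are relative within a library, so whether the amount of Cdc45 footprints per cell was higher was not measured.

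By footprint level per coding length, Cdc45 was the lowest of the 3 genes in unstressed cells and at 500 mOsm and the highest at 700 mOsm, while Ccnd1 stayed above Ccnd2. Cdc45 had 0.183 times the footprint level of Ccnd1 in unstressed cells, 0.367 times at 500 mOsm, 1.12 times at 600 mOsm (95% counting interval 0.999 to 1.25), 9.03 times at 700 mOsm after 15 min (6.45 to 13) and 4.08 times after 2 h (3.15 to 5.37). Against Ccnd2 it had 0.261 times the level in unstressed cells, 0.703 times at 500 mOsm, 5.06 times at 600 mOsm, 17.7 times at 700 mOsm after 15 min and 20.0 times after 2 h. The ratio between the cyclins varied too. Ccnd1 had 1.42 times the footprint level of Ccnd2 in unstressed cells, 1.92 times at 500 mOsm and 4.54 times at 600 mOsm (3.65 to 5.69). At 700 mOsm the ratio was 1.96 after 15 min, with an interval of 1.08 to 3.67 that includes the unstressed ratio, and 4.90 after 2 h (2.67 to 9.69). Among the 8849 transcripts past the filter on low values (a mean scaled level of at least 2), Ccnd1 lay above 92.2% of footprint levels in unstressed cells and 64.8% at 700 mOsm after 15 min. Cdc45 lay above 69.3% in unstressed cells and 91.0% at 700 mOsm after 15 min.

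Among all transcripts, at least 2-fold lower footprints were common at 600 and 700 mOsm and at least 2-fold higher ones less so. A difference was counted from 2-fold on the log2(level + 1) scale, which understates differences of low transcripts. Transcripts not listed in a library were counted as 0. The footprint libraries at 700 mOsm were the shallowest and listed none under 5 reads. The shares and places given for 700 mOsm can thus include transcripts that were only below this limit. At 500 mOsm 0 of the 3 members passed it, against 0.746% of all transcripts higher and 16.8% lower. At 600 mOsm 2 were lower (Ccnd1 and Ccnd2) and 0 higher, against 35.4% lower and 3.74% higher of all, with Cdc45 just under the bound at 0.97 on the log2 scale and past it, at 1.09, on the values as deposited. After 15 min at 700 mOsm 1 was higher and 2 lower, against 16.8% and 48.9% of all. After 2 h at 700 mOsm 1 was higher and 2 lower, against 16.2% and 47.8%. Since the members were chosen with these data known, nothing is read from these counts. The log2 difference of Ccnd2 at 600 mOsm, -3.25, was below that of 96.0% of transcripts, whereas Ccnd1 at 700 mOsm after 2 h, at -2.28, was below 76.9%. Cdc45 was above 98.3% of transcripts after 15 min at 700 mOsm and above 96.8% after 2 h.

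**Figure D2:**
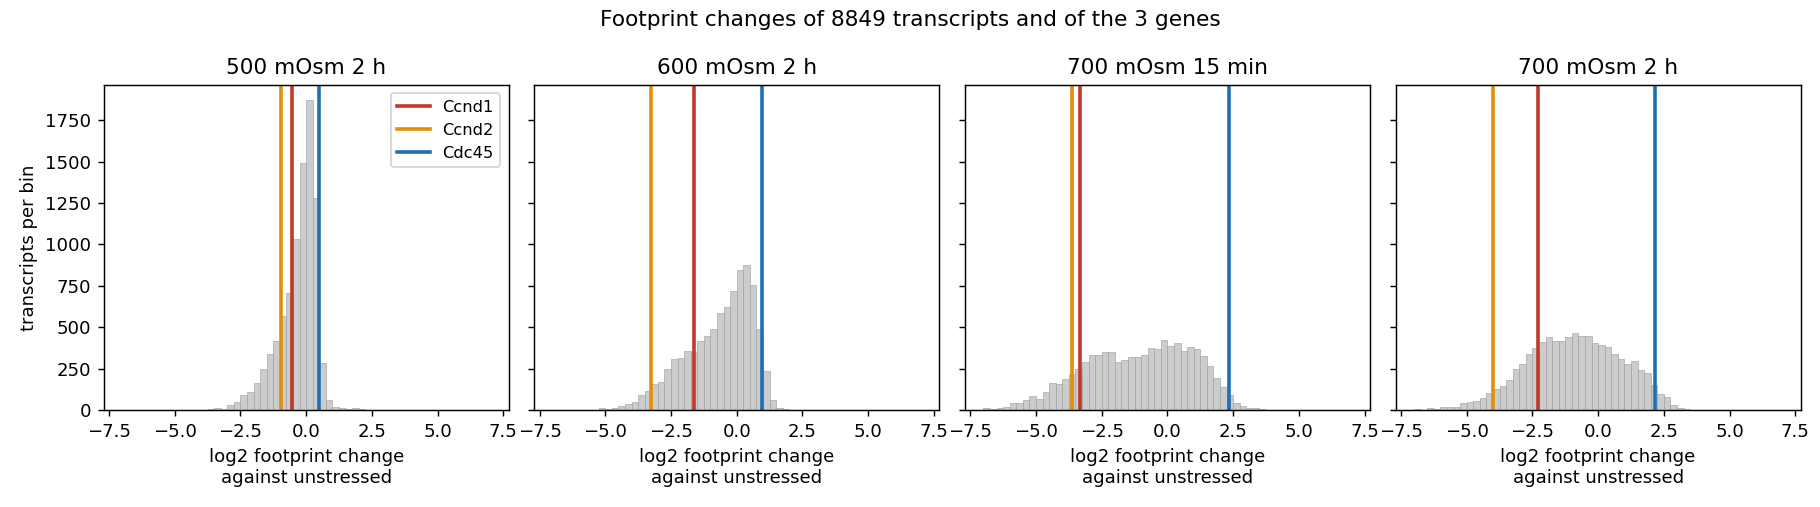
Histograms of the log2 footprint difference from unstressed cells over 8849 transcripts (x axis, log2; y axis, transcripts per bin) in the 4 stress conditions, with a line at Ccnd1, Ccnd2 and Cdc45. At 700 mOsm after 15 min the lines stand at -3.31, -3.65 and 2.35, inside a distribution with a median of -0.92.

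Between osmolarities at 2 h, Ccnd2 had its larger step between 500 and 600 mOsm under both scalings, whereas the place of the larger step of Ccnd1 depended on the scaling. Of the 3 members, 0 were at least 2-fold higher and 2 lower at 600 than at 500 mOsm, against 1.34% and 19.6% of all transcripts. Ccnd1 was 2.15 times lower at 600 than at 500 mOsm (95% counting interval 1.94 to 2.38) and Ccnd2 5.09 times lower (4.14 to 6.32), a log2 difference of -2.30 that was below 98.7% of all transcripts. At 700 against 600 mOsm 1 was higher and 0 lower, against 15.0% and 22.9% of all. That 1 was Cdc45, at 2.31-fold (2.07 to 2.57). This step turned on the scaling: on the values as deposited Cdc45 was under 2-fold (log2 difference 0.60), and Ccnd1 and Ccnd2 were at least 2-fold lower (-1.24 and -1.29). At 600 against 500 mOsm the deposited values gave -1.07 for Ccnd1, -2.27 for Ccnd2 and 0.54 for Cdc45. Between the times at 700 mOsm, 1 was higher at 2 h than at 15 min (Ccnd1, 1.03 on the log2 scale) and 0 were lower, against 22.0% and 16.2%. That count was 0 without replicate 1 at 15 min or without replicate 2 at 2 h. From the summed reads the Ccnd1 difference was 1.95-fold, just under 2-fold.

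Length of the non-coding sequence went with the footprint difference across transcripts, and the members lay on the same side. At 700 mOsm for 2 h among transcripts past the filters of both assays, the 1909 whose non-coding sequence was 500 nt or shorter had a median log2 footprint difference of -0.12, and the 2283 with over 2000 nt one of -1.44. Cdc45, with 442 nt, lay at 2.16, above 93.8% of the first class, and Ccnd2, with 5460 nt, at -3.98, below all but 6.57% of the second. Ccnd1 lay above 31.3% of the second class, within its quartiles of -2.61 and -0.29. At 600 mOsm Ccnd2 was below all but 5.96% of the class and Ccnd1 below all but 33.0%. The class of coding length, over 200 and up to 400 codons for the cyclins, gave a like place, with all but 8.0% of 2524 transcripts above Ccnd2 at 700 mOsm for 2 h and all but 28.8% above Ccnd1. Cdc45 lay above 98.6% of the 3025 in its own class of over 400 and up to 800 codons. RNA differences also went with non-coding length. At 700 mOsm for 2 h their median was 0.27 up to 500 nt and -0.45 over 2000 nt. Cdc45 RNA lay above 78.9% of the first of these classes, and Ccnd1 and Ccnd2 RNA above 55.3% and 16.4% of the second. After 15 min at 700 mOsm the same places were 48.8%, 25.4% and 12.3%. Whether length has a part in the footprint or RNA differences of these 3 was not tested.

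**Figure D3:**
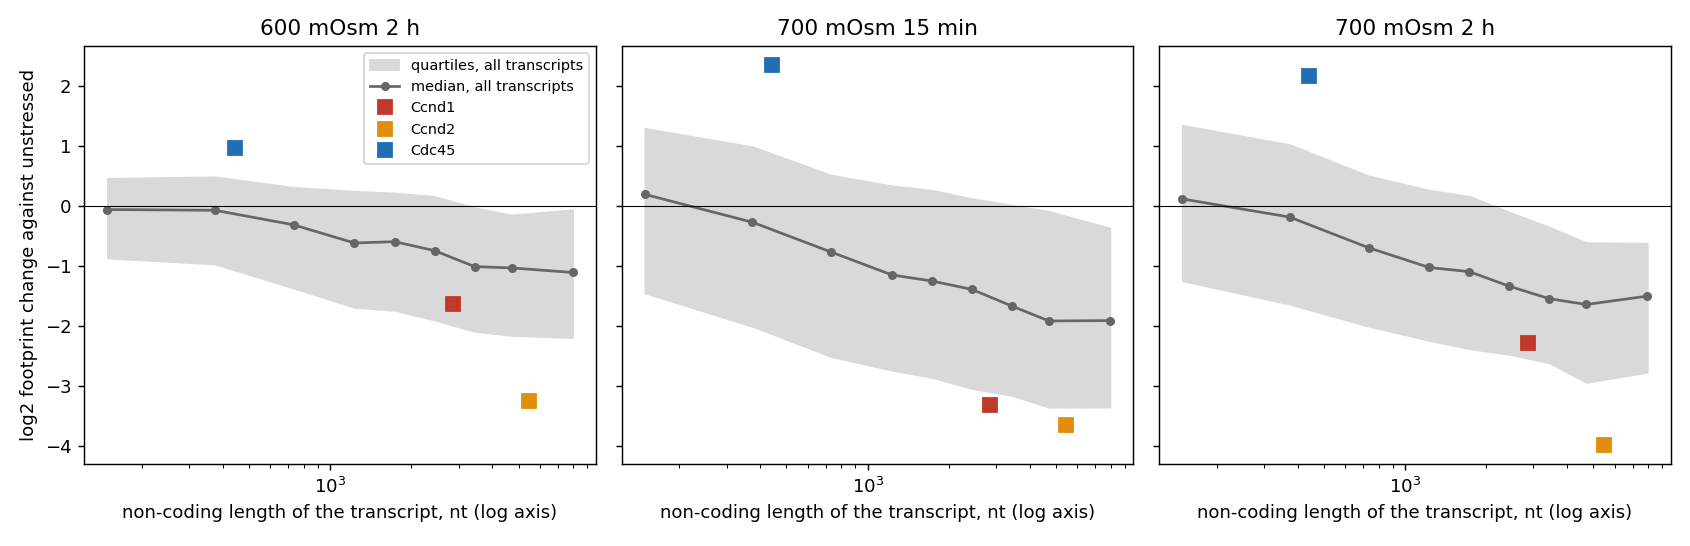
Log2 footprint difference from unstressed cells (y axis) against the non-coding length of the transcript in nt (x axis, log) at 600 mOsm 2 h, 700 mOsm 15 min and 700 mOsm 2 h; the grey line is the median and the band the quartiles of transcripts in length bins, and the squares are the 3 members. Cdc45 lies above the band in all 3 panels and Ccnd2 below it, while Ccnd1 lies inside it at 600 mOsm and at 700 mOsm 2 h and below it at 700 mOsm 15 min.

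RNA of the cyclins fell and that of Cdc45 rose at 700 mOsm, while at 500 and 600 mOsm none of the 3 passed the test. "Fell" and "rose" are used of RNA with an adjusted p under 0.05 in limma, fitted over all 9275 transcripts past the filter, and are here a description of the members. RNA and footprint levels come from separate tables, and among the 9 groups the unstressed one had the lowest precision weight (0.32 against 0.54 to 2.23).

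Ccnd1 RNA stood at 100.4 and 107 scaled FPKM in unstressed cells, 105 and 107 at 500 mOsm and 99.4 and 97.7 at 600 mOsm. At 700 mOsm it stood at 68.7 and 63.1 after 15 min and at 79.3 and 79.5 after 2 h, below every library of the milder conditions. The means were 65.9 ± 4.03 after 15 min and 79.4 ± 0.153 after 2 h at 700 mOsm, against 104 ± 4.78 in unstressed cells (SD, n = 2 each). Ccnd1 RNA fell by 0.65 on the log2 scale after 15 min (SE 0.069) and by 0.38 after 2 h (SE 0.079). Levels at 2 h and 15 min did not overlap, and the 2 h level was higher by 0.27 on the log2 scale (SE 0.056, past the threshold).

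Ccnd2 RNA was lowest at 700 mOsm after 2 h. It stood at 36.1 and 34.4 scaled FPKM in unstressed cells, 33.0 and 33.8 at 500 mOsm and 31.4 and 29.8 at 600 mOsm, and at 700 mOsm at 20.0 and 19.3 after 15 min and 16.6 and 17.9 after 2 h. Each stress group lay below the unstressed libraries, by the most at 700 mOsm. Ccnd2 RNA fell by 0.81 (SE 0.076) after 15 min at 700 mOsm and by 0.99 (SE 0.088) after 2 h. The difference of 2 h against 15 min, -0.18 (SE 0.062), passed the threshold but not in a fit on these groups alone, nor without replicate 1 of either group.

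Cdc45 RNA stood at 45.6 and 46.8 scaled FPKM in unstressed cells, 45.2 and 44.4 at 500 mOsm and 49.0 and 48.8 at 600 mOsm. At 700 mOsm it stood at 52.8 and 54.9 after 15 min and 71.0 and 63.6 after 2 h, above all other groups under stress. It rose by 0.53 on the log2 scale after 2 h (SE 0.097). The rise after 15 min, 0.22 (SE 0.085), was past the threshold but lost the call on the values as deposited (0.16), in a fit on these groups alone, and without either replicate of the stressed group (0.24 and 0.19). Relative to 600 mOsm, Cdc45 RNA at 700 mOsm for 2 h rose by 0.45 (SE 0.072), and that of Ccnd1 and Ccnd2 fell by 0.31 (SE 0.059) and by 0.79 (SE 0.065).

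Calls in RNA were common among all transcripts at 700 mOsm. At 500 mOsm 0 rose and 0 fell, against 1.55% and 1.89% of all transcripts, and at 600 mOsm 0 rose and 0 fell, against 3.87% and 9.11%. After 15 min at 700 mOsm 1 rose and 2 fell, against 19.3% and 30.5%, and after 2 h 1 rose and 2 fell, against 18.7% and 31.0%. Between 600 and 500 mOsm 0 rose and 0 fell, against 6.38% and 10.4% of all. At 700 against 600 mOsm 1 rose and 2 fell, against 17.5% and 33.0%, and at 2 h against 15 min of 700 mOsm 2 rose and 1 fell, against 22.4% and 28.6%. Nothing about the members is read from these shares.

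With 2 libraries a group, RNA libraries of compared groups often did not overlap. Against unstressed cells, the libraries lay apart for 2 of the 3 members at 500 mOsm (44.9% of all transcripts), for 3 at 600 mOsm (54.9%), and for 3 at 700 mOsm both after 15 min (76.3%) and after 2 h (75.4%). In recovery from the brief stress they lay apart from the unstressed libraries for 2 members after 15 min (54.2%) and for 3 in the libraries labelled 2 h (58.3%). In recovery from the prolonged stress they lay apart for 3 in the libraries labelled 15 min (59.4%) and for 2 after 2 h (63.6%). Between stresses they lay apart for 3 members at 600 against 500 mOsm (58.0%), 3 at 700 against 600 mOsm (75%) and 3 at 2 h against 15 min of 700 mOsm (76.4%). Each recovery lay apart from its stress for 3 members, with 83.0%, 78.0%, 83.3% and 82.9% of all transcripts for the 15 min and 2 h recoveries from the brief and then the prolonged stress, as labelled. The exceptions against unstressed cells were Ccnd1 at 500 mOsm, Ccnd2 after 15 min of recovery from the brief stress and Cdc45 after 2 h of recovery from the prolonged stress.

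**Figure D4:**
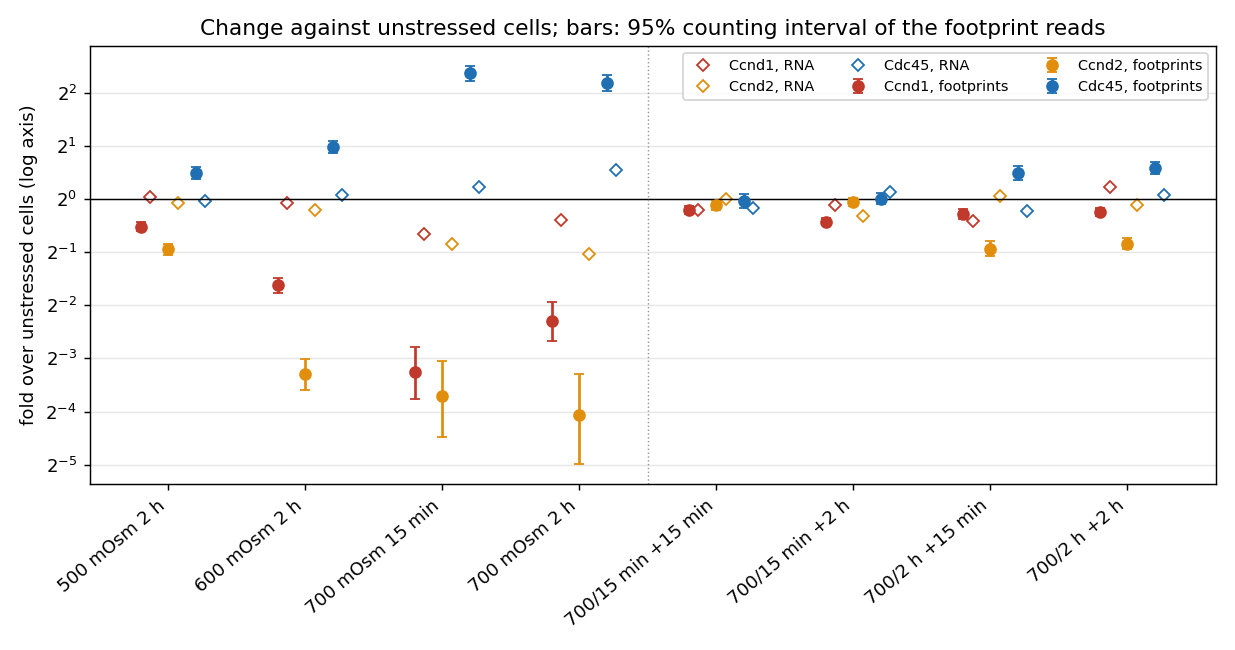
Level relative to unstressed cells (y axis, fold on a log axis) of footprints (filled circles, with 95% counting intervals of the reads) and RNA (open diamonds, without error bars) for Ccnd1, Ccnd2 and Cdc45 in the 8 other conditions. At 600 and 700 mOsm the footprint points lie farther from 1 than the RNA points for all 3 genes, at 0.105 against 0.635 for Ccnd1 at 700 mOsm 15 min.

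Footprints relative to RNA, the ratio of scaled RPKM to scaled FPKM, differed from unstressed cells by more than RNA did. This held for each member in each stress condition. Unstressed cells had a Ccnd1 ratio of 2.67, and it was 1.82 at 500 mOsm, 0.905 at 600 mOsm, and at 700 mOsm 0.426 after 15 min and 0.709 after 2 h. That of Ccnd2 was 5.51 in unstressed cells, higher than in 95.1% of 8446 transcripts, then 3.02 at 500 mOsm, 0.642 at 600 mOsm, and at 700 mOsm 0.745 after 15 min and 0.693 after 2 h. That of Cdc45 was 1.1 in unstressed cells, above 29.5% of transcripts, then 1.58 at 500 mOsm, 2.06 at 600 mOsm, and at 700 mOsm 4.87 after 15 min, above 88.8%, and 3.43 after 2 h. For Ccnd2 the ratio as printed was about as low at 600 as at 700 mOsm, where its RNA was lower. At 700 mOsm it rests on 18 footprint reads after 15 min and 13 after 2 h. These are too few to tell whether it differed from that at 600 mOsm. The ratio has no replicate error, since footprints count as 1 sample a condition. Its places among all transcripts were taken with 1 added to both levels, unlike the ratios printed.

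**Figure D5:**
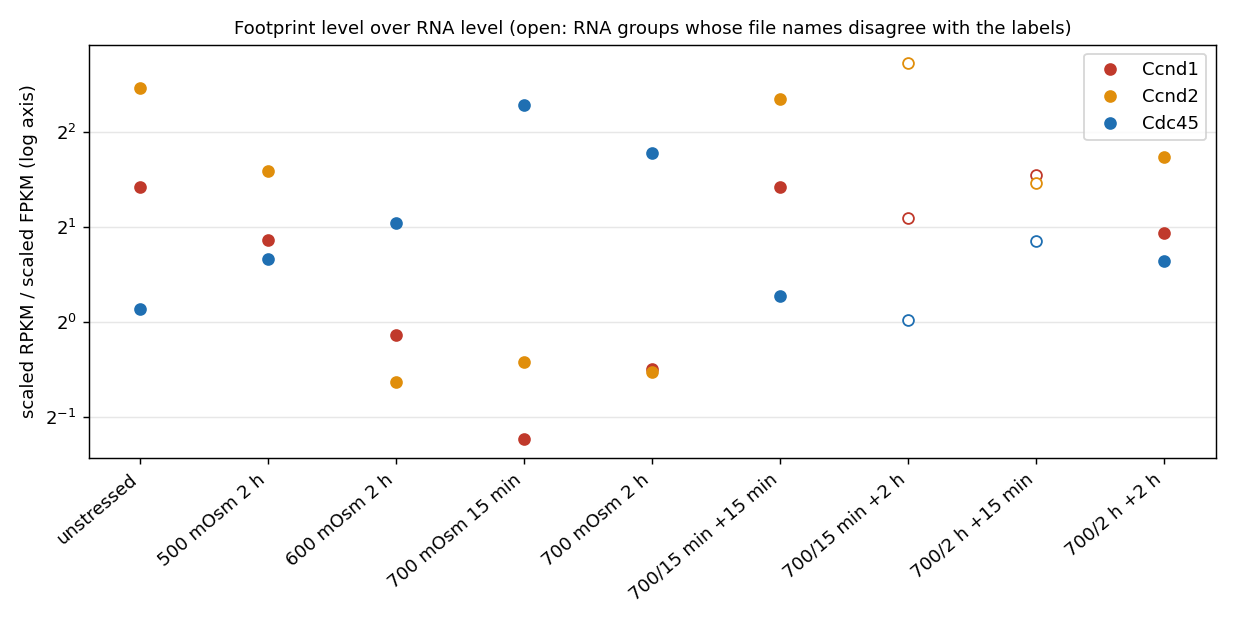
Ratio of the scaled footprint level (RPKM) to the scaled RNA level (FPKM) on a log axis (y) in the 9 conditions (x) for Ccnd1, Ccnd2 and Cdc45; open symbols mark the conditions whose RNA file names disagree with the labels. The ratio of Ccnd2 is 5.51 in unstressed cells and 0.642 to 0.745 at 600 and 700 mOsm, that of Cdc45 1.1 and 2.06 to 4.87.

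In recovery from 15 min at 700 mOsm, footprints of Cdc45 were back in the unstressed range after 15 min, those of Ccnd2 overlapped with it after 2 h, and those of Ccnd1 stayed below it. After 15 min of recovery Ccnd1 stood at 229.9 and 249 scaled RPKM, Ccnd2 at 179.7 and 180.4 and Cdc45 at 49.9 and 49.3. After 2 h they stood at 202 and 209.7, at 186 and 188 and at 52.0 and 50.3. The unstressed libraries, at 267 to 288 for Ccnd1, did not overlap with either recovery group, whereas those of Cdc45, at 48.6 to 53.1, enclosed both. Relative to unstressed cells, Ccnd1 was 1.15 times lower after 15 min of recovery (95% counting interval 1.09 to 1.22) and 1.35 times lower after 2 h (1.29 to 1.41). At 2 h the log2 difference of -0.43 was below that of 94.4% of all transcripts. Ccnd2 was 1.08 times lower (1.01 to 1.16) after 15 min and 1.04 times lower (0.989 to 1.1) after 2 h.

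In recovery from 2 h at 700 mOsm, Ccnd2 stayed lower and Cdc45 higher than in unstressed cells. After 15 min of recovery Ccnd1 stood at 224 and 230.4 scaled RPKM, Ccnd2 at 101 and 102 and Cdc45 at 71.9 and 70.4. After 2 h they stood at 235 and 233, at 106 and 111 and at 75.5 and 77.2. None of these groups overlapped with the unstressed libraries. Relative to unstressed cells, Ccnd2 was 1.92 times lower after 15 min (95% counting interval 1.74 to 2.12) and 1.79 times lower after 2 h (1.66 to 1.93), and Cdc45 was 1.40-fold (1.27 to 1.54) and 1.5-fold (1.39 to 1.62). Ccnd1 was 1.22 times lower after 15 min (1.14 to 1.31) and 1.18 times lower after 2 h (1.12 to 1.25). Those levels of Ccnd2 and Cdc45 were close to the ones at 500 mOsm for 2 h, with overlapping libraries after 15 min of recovery.

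Set against the stress that preceded it, each recovery had higher footprints on the cyclins and lower ones on Cdc45. After the brief stress, Ccnd1 was 8.26-fold higher with 15 min of recovery (95% counting interval 5.94 to 11.8), Ccnd2 12.1-fold higher (7.65 to 20.6) and Cdc45 5.29 times lower (4.74 to 5.90). After the prolonged stress, 15 min of recovery had Ccnd1 4.0-fold higher (3.12 to 5.23), Ccnd2 8.77-fold higher (5.08 to 16.6) and Cdc45 3.25 times lower (2.89 to 3.66). These sizes depended on the scaling. On the values as deposited, the log2 difference of Cdc45 was -1.79 rather than -2.38 after the brief stress and -1.17 rather than -1.68 after the prolonged one. That of Ccnd1 was 3.67 rather than 3.10 and 2.51 rather than 2.00. In each of the 4 recovery comparisons 2 members were at least 2-fold higher and 1 lower. The shares of all transcripts were 48.3% higher and 17.1% lower after 15 min of recovery from the brief stress, 48.4% and 17.8% after 2 h, 42.3% and 13.7% after 15 min of recovery from the prolonged stress, and 43.1% and 14.7% after 2 h. Against unstressed cells 0 of the 3 members differed at least 2-fold in any recovery group, where 0.644% of transcripts were higher and 0.633% lower after 15 min from the brief stress, 0.689% and 0.271% after 2 h, 1.79% and 5.51% after 15 min from the prolonged stress, and 3.89% and 7.21% after 2 h. The comparisons with stress and with unstressed cells share the recovery libraries.

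RNA of the 3 genes in the recovery groups whose labels and file names agree lay closer to the unstressed level than under 700 mOsm stress. After 15 min at 700 mOsm and 15 min of recovery, the levels were 89.6 and 89.2 scaled FPKM for Ccnd1, 35.5 and 35.1 for Ccnd2 and 41.0 and 41.1 for Cdc45. Ccnd1 and Ccnd2 RNA rose by 0.44 (SE 0.037) and 0.81 (SE 0.041) relative to the stress and Cdc45 RNA fell by 0.38 (SE 0.046). Against unstressed cells 0 rose and 0 fell, against 4.39% and 2.59% of all transcripts. After 2 h at 700 mOsm and 2 h of recovery, the levels were 119.7 and 124 for Ccnd1, 32.2 and 33.1 for Ccnd2 and 51.1 and 46.6 for Cdc45. There Ccnd1 RNA was above every unstressed library, at 122 ± 3.25 against 104 ± 4.78 in unstressed cells (SD, n = 2 each), and rose by 0.23 (SE 0.068), a call lost in a fit on these groups alone and without replicate 2 of the recovery group. Of the members 1 rose and 0 fell, against 13.9% and 8.28% of all. Relative to 2 h of stress, Ccnd1 and Ccnd2 RNA rose by 0.61 (SE 0.055) and 0.88 (SE 0.060) and Cdc45 RNA fell by 0.45 (SE 0.067).

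The libraries labelled 700 mOsm 15 min, recovery 2 h had 94.2 and 98.1 scaled FPKM for Ccnd1, 29.5 and 27.2 for Ccnd2 and 49.1 and 52.0 for Cdc45. Of the members 0 rose and 1 fell against unstressed cells, against 4.92% and 8.37% of all transcripts. That 1 was Ccnd2, at -0.31 on the log2 scale (SE 0.081), a call lost in a fit on these groups alone and without replicate 2 of the labelled group. The libraries labelled 700 mOsm 2 h, recovery 15 min had 78.8 and 76.4 for Ccnd1, 36.7 and 36.9 for Ccnd2 and 40.9 and 38.2 for Cdc45. There 0 rose and 1 fell, against 8.09% and 6.27% of all, and Ccnd1 was that 1, at -0.41 (SE 0.072). With the first label the libraries of both cyclins lay below the unstressed ones, and with the second only those of Ccnd1 did among the cyclins. Against the stress of the same label, 2 rose (Ccnd1 by 0.54 and Ccnd2 by 0.50) and 0 fell with the first label, where 33.5% of all transcripts rose and 22.7% fell, and 1 rose (Ccnd2 by 1.05) and 1 fell (Cdc45 by 0.75) with the second, where 38.8% rose and 29.0% fell. In the recovery groups whose labels and file names agree, 2 rose and 1 fell against the stress. The shares of all were 40.9% and 27.3% after the brief stress and 42.1% and 24.1% after the prolonged one. Which label belongs to which libraries was not settled, so no ratio of footprints to RNA is given for these conditions in the text.

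Ordered by level over the 9 conditions, footprints of Ccnd1 were highest in unstressed cells and lowest at 700 mOsm after 15 min, and neighbours whose libraries overlapped were the 15 min recovery from the brief stress with the 2 h recovery from the prolonged one, and the 2 h recovery from the brief stress with 500 mOsm. For Ccnd2, unstressed cells overlapped with the 2 h recovery from the brief stress, the 15 min recovery from the prolonged stress with 500 mOsm, and 700 mOsm after 15 min with 2 h. For Cdc45 the order ran the other way, with 700 mOsm after 15 min on top, unstressed cells overlapped with both recoveries from the brief stress, and 500 mOsm with the 15 min recovery from the prolonged stress. In RNA, overlapping neighbours for Ccnd1 were 500 mOsm with unstressed cells, and 600 mOsm with the libraries labelled 700 mOsm 15 min, recovery 2 h. For Ccnd2 they were unstressed cells with the 15 min recovery from the brief stress, and 500 mOsm with the 2 h recovery from the prolonged stress. For Cdc45 the 2 h recovery from the prolonged stress overlapped with unstressed cells, with 600 mOsm and with the libraries labelled 700 mOsm 15 min, recovery 2 h. The RNA range over the condition means was 65.9 to 122 FPKM for Ccnd1, 17.3 to 36.8 for Ccnd2 and 39.5 to 67.3 for Cdc45. Over the 9 condition means of log2(level + 1), Pearson's r of Ccnd1 with Ccnd2 was 0.92 in footprints and 0.58 in RNA, that of Ccnd2 with Cdc45 -0.94 and -0.91, and that of Ccnd1 with Cdc45 -0.95 and -0.24. All points share the libraries and their scaling. The RNA of Ccnd1 and Cdc45 was thus much less opposed than their footprints.

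The transcripts with the RNA pattern most like that of each member were found by Pearson's r over the 9 condition means, among 9274 others. For Ccnd1 it was ENSMUST00000041272 (r = 0.992), with 20 transcripts at 0.95 or above. For Ccnd2 it was ENSMUST00000046663 (r = 0.992), with 213, and for Cdc45 ENSMUST00000109985 (r = 0.986), with 98. The RNA pattern of Ccnd1, low at 700 mOsm after 15 min and above the unstressed level after 2 h of recovery from the prolonged stress, was thus shared by fewer transcripts than that of Ccnd2.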

How the data were processed

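Footprint and RNA libraries were taken from mouse embryonic fibroblasts in 9 conditions, 2 of each kind per condition, grouped by the labels. The authors deposited 1 list per library of transcript identifiers with RPKM (footprints) or FPKM (RNA), per the file names. cutadapt, Bowtie, STAR and build GRCm38 are named, without versions or roles, per the submitters' processing notes. Annotation and counting remain not given in the sources used here.

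Deposited RPKM and FPKM values have the steps of whole reads over a length and a library total. Reads, totals and lengths were solved for and came out whole within a relative tolerance of 1e-09 for 99.985% or more of the values in each library, which follows largely by construction. Lengths behind RPKM are coding lengths, and non-coding length is the RNA length less the coding length. Footprint lists rarely hold transcripts under 5 reads (at most 0.304% of a library). In both assays, a transcript not listed in a library was set to 0 there.

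Levels were divided by the median ratio to the geometric mean over transcripts above 0 in every library of the assay. These also had a mean of at least 10 (4619 footprint, 5705 RNA). Changes are differences of log2(level + 1), over transcripts with a mean scaled level of at least 2 (8849 footprint, 9275 RNA, 8446 both). RNA calls come from limma 3.58.1 under R 4.3.3. The model with 9 group means took all 18 libraries, weighted by group and with a trend of variance on mean. Its two-sided p-values were adjusted by Benjamini-Hochberg over all transcripts, with a threshold of 0.05. Because the RNA libraries are not stated to be separate cultures, calls measure only how these libraries spread, possibly for technical reasons. Footprint pairs counted as 1 sample (at least 40 reads per pair in the chi-square), so a planned limma test was replaced by a bound of 2-fold and exact 95% counting intervals. The read recovery and the fit were tried on simulated data, with the solved lengths and totals and the same replicate spread in all groups. The real RNA groups differed in spread, so no conclusion is drawn from these trials.

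The members and lists were chosen with earlier results of these data known. The named transcripts are the members and, for each, the 1 with the highest RNA correlation. The identifiers are not paired with gene names in the tables used here: member names come from the list of identifiers, and planned lists of other cell-cycle genes and of cell type markers were not applied. The alternatives were another pseudocount (0.25), no filter, values as deposited, a replicate block, equal weights, fits on the compared groups, voom, limma for footprints, and leaving out each library.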

Additional observations from a re-analysis of the deposited data

Results flagged for a closer look

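The RNA difference from unstressed cells at 2 h of 700 mOsm was set against that at 15 min by the limma test of the 2 times. It passed the threshold for each of the 3 genes. The members were chosen with these data known, so these calls only describe the libraries. The log2 difference at 2 h minus that at 15 min was 0.27 for Ccnd1 and 0.31 for Cdc45, with both 2 h libraries above both 15 min ones, and -0.18 for Ccnd2, with both 2 h libraries below. The value for Ccnd2 did not pass in a fit on these groups alone or without replicate 1 of either group.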

How the results depend on the processing

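Of 495 alternative values of the members' RNA changes, 464 kept the direction and the side of the threshold, 14 passed it and 11 lost it, and 6 turned sign near 0. The 6 were Ccnd2 after 15 min of recovery from the brief stress against unstressed cells (0.0018 as reported): -0.0041 as deposited, -0.00062 with voom, -0.032 without replicate 2 of the unstressed cells and -0.0050 without replicate 1 of the recovery group; Ccnd1 in the libraries labelled 700 mOsm 2 h, recovery 15 min against the stress (-0.033): 0.028 as deposited; and Ccnd1 at 500 mOsm (0.035): -0.012 without replicate 1 of the unstressed cells. Without replicate 2 of the unstressed cells that last value was 0.082. Of 360 alternatives for footprint changes, none turned the sign of a change of at least 2-fold, and 16 moved the value by more than its 95% counting interval allows.

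Counts moved in 35 of 540 alternatives, which cover counts of members and, without the filter on low values, footprint counts over all transcripts. Among the latter, transcripts at least 2-fold lower than in unstressed cells numbered 154 rather than 56 after 15 min of recovery from the brief stress. After 2 h of recovery from the brief stress they numbered 42 rather than 24. Without the filter, with equal weights and with voom, 1 member fell rather than 0 at 600 mOsm (Ccnd2) and after 15 min of recovery from the brief stress (Ccnd1), and 2 rather than 1 in the group labelled 700 mOsm 2 h, recovery 15 min (Cdc45 added). In fits on the compared groups only, 0 rather than 1 rose at 700 mOsm 15 min (also as deposited) and after 2 h of recovery from the prolonged stress, and 0 rather than 1 fell in the group labelled 700 mOsm 15 min, recovery 2 h and at 700 mOsm 2 h against 15 min. Leaving out 1 library gave 0 to 1 for each of these, and 0 to 2 and 1 to 2 for those fallen after 15 min of recovery from the brief stress and in the group labelled 700 mOsm 2 h, recovery 15 min. For footprints, 1 member rather than 0 was higher at 600 mOsm as deposited, and at 700 against 600 mOsm 0 rather than 1 was higher and 2 rather than 0 lower. Leaving out 1 footprint library gave 0 to 1 higher at 600 mOsm, 1 to 2 lower at 600 against 500 mOsm, 0 to 1 lower at 700 against 600 mOsm and 0 to 1 higher at 2 h against 15 min of 700 mOsm. The cause was not tested.

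The replicate numbers do not pair the RNA samples: over 36 pairs of groups the correlation of same-numbered deviations was -0.31 to 0.31 (median 0.01), and a replicate block changed no call of the members. Depth limits the footprints at 700 mOsm, where Ccnd2 rests on 18 and 13 reads.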
